A study of Mus musculus with 15 samples.

Results

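The genes described here are 10 that encode proteins of the lipid droplet surface and its regulators in mouse perivascular fat: the perilipins Plin1, Plin2, Plin3, Plin4 and Plin5, the CIDE family members Cidea and Cidec, the small lipase inhibitors G0s2 and Hilpda, and Bscl2, which encodes seipin. They were found by matching the Ensembl gene IDs of the count table to these symbols, which gave 10 of 43352 genes, and all 10 passed the filter on low counts that left 19645 genes for testing. The tissue was perivascular adipose tissue (PVAT), the fat around the aorta, taken from its thoracic part (tPVAT) or its abdominal part (aPVAT) in mice 11 weeks old. Control mice carried the allele labelled Prdm16flox and no Cre was listed for them. The conditional knockout (cKO) mice were Prdm16flox, AdipoQCre+, in which Cre is driven by Adipoq, a gene of mature adipocytes, so other cells of the fat would keep Prdm16. The tPVAT groups had 4 libraries for each genotype, and aPVAT had 4 for controls and 3 for the cKO, numbered 1, 3 and 4, each of total RNA from pulverized frozen tissue. The labels state neither sex nor the number of floxed copies, nor whether equal library numbers mean 1 mouse, so p-values measure only the spread between these libraries.

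Adipocytes store triglyceride in lipid droplets, whose surface carries a coat of proteins that decides how readily lipases reach the fat. Perilipins are the main coat proteins, and CIDE proteins gather where droplets touch and pass lipid from the smaller to the larger. Brown adipocytes hold many small droplets and express Cidea strongly, whereas white adipocytes hold a single large droplet and rely on Cidec, and Prdm16 encodes a transcriptional regulator known for keeping the brown and beige adipocyte program on. All of these are measurements of whole tissue, in which fewer cells of a type and less RNA per cell cannot be told apart.

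Libraries held 37761133 to 68735385 counts. Genes of the mitochondrial genome took 33.4% to 36.4% of counts in tPVAT controls, 26.5% to 31.6% in tPVAT cKO, 13.03% to 16.0% in aPVAT controls and 13.3% to 13.9% in aPVAT cKO. Ribosomal and other structural RNA made up 0.0762% to 0.233% of most libraries but 2.45% of aPVAT cKO 4 and 0.985% of aPVAT control 2. Prdm16 fell with the knockout in both depots, from 47.3 ± 6.04 (SD, n = 4) to 22.4 ± 1.07 (n = 4) CPM (the gene's counts relative to its library's TMM-scaled total) in tPVAT and from 23.7 ± 2.22 (n = 4) to 16.1 ± 1.99 (n = 3) in aPVAT, with log2 fold changes of -1.08 and -0.57 (edgeR quasi-likelihood test, Benjamini-Hochberg adjusted p = 2.22e-06 and 0.00992). In aPVAT, leaving out cKO 1 (-0.53, adjusted p = 0.0692) or cKO 3 (-0.51, adjusted p = 0.0591) ended that call. Markers on the adipocyte list summed to 17958 to 18931 CPM in tPVAT controls and 24295 to 25321 in tPVAT cKO, with 4 of 10 higher there. In aPVAT they summed to 22132 to 23862 and 23901 to 29046, with 1 of 10 higher. That list holds Lep and Retn, which are also on the white-selective list below. It shares Lipe and Pnpla2 with the later list of lipases and Pparg with the later list of regulators. The thermogenic list shares Ppargc1a and Ebf2 with those regulators, so these lists are not independent. Markers of thermogenic adipocytes summed to 7378 to 8150 against 4374 to 5551 in tPVAT, with 2 of 9 lower, and to 577 to 1022 against 116 to 174 in aPVAT, with 5 of 9 lower. Markers selective for white adipocytes summed to 135 to 180 against 454 to 586 in tPVAT, with 5 of 7 higher, and to 707 to 1184 against 1110 to 1343 in aPVAT, with 4 higher and 1 lower. Heart muscle markers summed to 242 to 322 in tPVAT controls and 90.3 to 236 in tPVAT cKO, with 5 of 10 lower, and macrophage markers to 830 to 1150 in aPVAT controls and 586 to 846 in aPVAT cKO, with 0 of 12 passing. Endothelial markers summed to 1034 to 1176 CPM in tPVAT controls and 915 to 974 in tPVAT cKO (3 of 8 lower), and smooth muscle markers to 2383 to 3077 and 2039 to 2224 (1 of 8 lower). None of the lists for fibroblasts, lymphocytes, skeletal muscle, mesothelium and adrenal cortex had a gene pass a genotype test in edgeR. No marker of these lists was at 0 in every library, and the part of these cell types in the results below was not tested. In tPVAT cKO 5.44% of all tested genes were higher and 6.61% lower (edgeR adjusted p under 0.05). In aPVAT cKO these shares were 0.743% and 0.789%.

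Plin4 and Plin5 are shown first because they lie side by side and went opposite ways between the depots. On GRCm38 (mm10), Plin4 is at chr17:56100591-56109803 and Plin5 at chr17:56111601-56117596, both on the minus strand and 1797 bases apart, and Plin3 follows 159879 bases further on, at chr17:56277476-56292873. The 250 bases upstream of each first start site, from RefSeq on GRCm38.p6, are printed 5′ to 3′ on the gene's strand, with capitals marking the motifs searched on both strands: AGGTCA (a nuclear receptor half-site), CCAAT and TATAA, and their reverse complements.
Plin4, chr17:56109783-56110032: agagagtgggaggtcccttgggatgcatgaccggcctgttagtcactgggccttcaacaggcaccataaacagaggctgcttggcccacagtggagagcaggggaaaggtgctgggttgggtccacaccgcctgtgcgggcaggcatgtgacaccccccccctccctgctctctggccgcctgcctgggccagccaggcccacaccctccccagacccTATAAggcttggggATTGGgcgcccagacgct
Plin5, chr17:56117549-56117798: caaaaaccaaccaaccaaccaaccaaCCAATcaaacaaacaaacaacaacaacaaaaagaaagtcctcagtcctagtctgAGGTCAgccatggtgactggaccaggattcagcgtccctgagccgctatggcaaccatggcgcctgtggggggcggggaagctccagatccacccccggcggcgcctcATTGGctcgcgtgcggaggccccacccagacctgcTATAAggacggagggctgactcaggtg
The Plin4 window held TATAA and CCAAT, the latter on the reverse strand, and no AGGTCA. The Plin5 window held all of these motifs. Over 32851 upstream windows of the same length AGGTCA occurred in 14.0%, CCAAT in 33.8% and TATAA in 22.8%. Windows were available for 9 of the 10 genes, and not for Cidea. These 9 genes had 14 windows, of which 3 held AGGTCA, 5 CCAAT and 4 TATAA, shares near those of all windows, and a direct repeat of AGGTCA with any single base between its copies, found in 0.0335% of all windows, was in 0 of the 14. A match is a description of the letters and not evidence of binding.

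In tPVAT, loss of Prdm16 went with higher levels of 4 of the 10 genes (Plin1, Plin2, Plin4 and Bscl2) and lower levels of 0, where 5.44% of all tested genes rose and 6.61% fell at an adjusted p under 0.05 (12% called in all). In aPVAT 0 of the 10 rose and 2 fell (Cidea and Plin5), where 0.743% of all genes rose and 0.789% fell (1.53% called in all). A further fit took library sizes outside the mitochondrial genome and used no TMM factors. In it, 35.1% in place of 45.2% of tPVAT calls and 30.1% in place of 48.5% of aPVAT calls were higher. The median log2 fold change of the 10 was 0.20 in tPVAT, against -0.01 over all tested genes, and -0.03 in aPVAT, against -0.01. The library groups did not overlap for 6 of the 10 in tPVAT, against 23.2% of all genes, and for 2 of the 10 in aPVAT, against 9.56%. All 10 together took 0.403% ± 0.0144 of counts in tPVAT controls (SD, n = 4), 0.490% ± 0.0148 in tPVAT cKO (n = 4), and, in aPVAT, 0.631% ± 0.0741 for controls (n = 4) and 0.619% ± 0.0604 for the cKO (n = 3). These are shares of all counts, including those of the mitochondrial genome, whose part differed between the groups as given above.

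**Figure D1:**
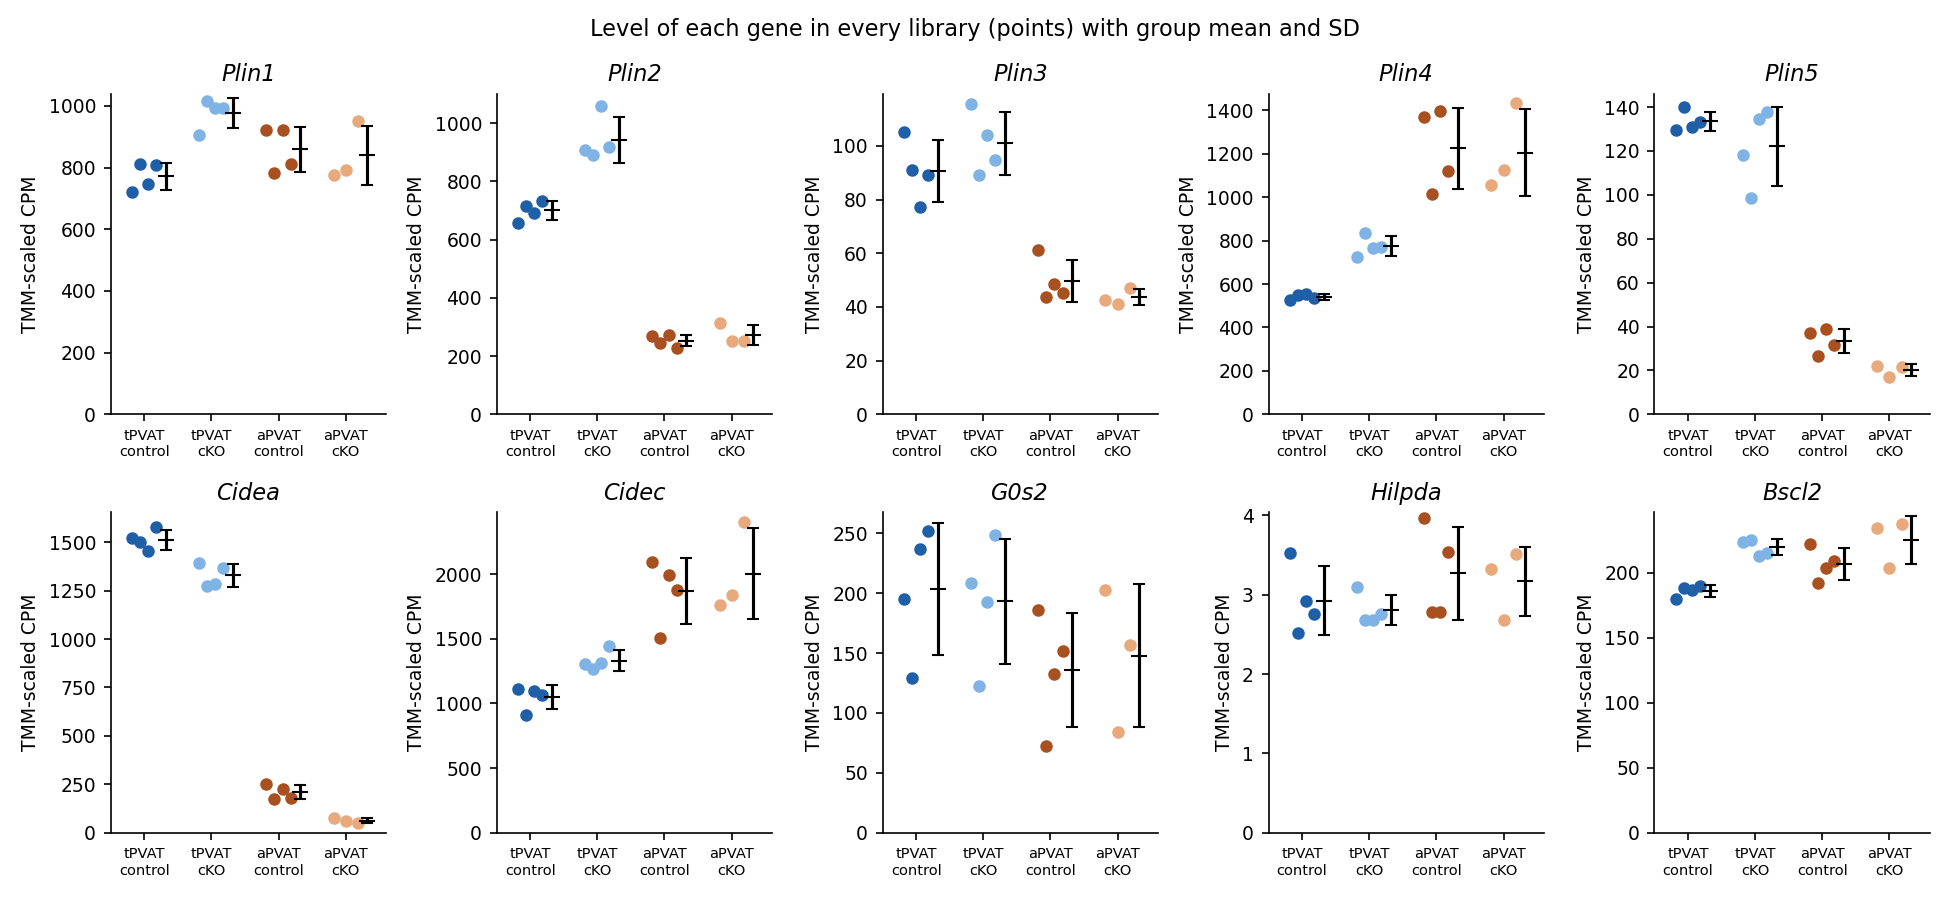
Level of each of the 10 genes in every library (points), in CPM scaled by TMM factors, by depot and genotype, with the group mean as a line. Cidea sits at 1274 to 1579 CPM in tPVAT and at 52.8 to 252 CPM in aPVAT, and Hilpda stays under 4 CPM in every library.

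Cidea, the CIDE protein of brown adipocytes, gave the largest genotype effect in aPVAT and the largest depot differences among the 10 genes. Its levels were 1519, 1500, 1455 and 1579 CPM in tPVAT controls 1 to 4 and 1391, 1274, 1285 and 1366 CPM in tPVAT cKO 1 to 4. The tPVAT groups did not overlap, with every cKO library lower, but the difference of -0.19 on the log2 scale (SE 0.119) did not pass the test (edgeR adjusted p = 0.348). In aPVAT, Cidea was at 252, 175, 228 and 182 CPM in controls 1 to 4 and at 76.8, 58.7 and 52.8 CPM in cKO 1, 3 and 4. The highest cKO library stood below the lowest control, and Cidea was 3.34-fold lower in the cKO (log2 fold change -1.74, SE 0.136, edgeR adjusted p = 6.42e-06). The genotype effect itself differed between depots, by -1.55 on the log2 scale (SE 0.178, edgeR adjusted p = 0.000303 for the interaction), which makes Cidea the single one of the 10 to pass that test, where 0.784% of all genes passed, and 0.626% passed with a negative difference. Summed thermogenic markers were lower in the cKO libraries of both depots, as given above.

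Cidec, the CIDE protein of large white adipocyte droplets, lies at chr6:113424634-113435760. Its levels were 1115, 914, 1093 and 1068 CPM in tPVAT controls and 1303, 1262, 1309 and 1445 CPM in tPVAT cKO. All 4 cKO libraries were above all 4 controls, yet the log2 fold change of 0.34 (SE 0.113) missed the threshold (edgeR adjusted p = 0.0609) and passed it in 11 of 25 alternative analyses (adjusted p = 0.00517 to 0.0496 in those). In aPVAT, Cidec was at 2095, 1508, 1994 and 1878 CPM in controls and 1764, 1835 and 2405 CPM in cKO, which overlapped (log2 fold change 0.10, SE 0.122, edgeR adjusted p = 0.774).

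Plin1, the perilipin of adipocyte droplets that holds the lipase co-activator Abhd5 until it is phosphorylated, lies at chr7:79720218-79732903. It was at 720.8, 810.2, 746.9 and 806.9 CPM in tPVAT controls and at 904.3, 1015.6, 992.2 and 991.6 CPM in tPVAT cKO. Every cKO library exceeded every control, and the rise was 0.34 on the log2 scale (SE 0.0813, edgeR adjusted p = 0.0117). In aPVAT it was at 921.8, 784.0, 922.3 and 810.7 CPM in controls and 775.2, 793.4 and 949.5 CPM in cKO, groups that overlapped (log2 fold change -0.03, SE 0.0877, edgeR adjusted p = 0.903).

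Plin4, a perilipin of white adipocytes that coats small nascent droplets, was at 527.8, 547.9, 554.5 and 534.0 CPM in tPVAT controls and at 725.8, 837.4, 767.7 and 771.7 CPM in tPVAT cKO. The groups were far apart, and the log2 fold change was 0.52 (SE 0.107, edgeR adjusted p = 0.00444), the largest rise of the 10 genes in tPVAT. In aPVAT the levels of 1368, 1017, 1398 and 1121 CPM in controls and 1059, 1125 and 1433 CPM in cKO overlapped (log2 fold change -0.02, SE 0.115, edgeR adjusted p = 0.949). The interaction of depot and genotype for Plin4 was -0.54 (SE 0.158, edgeR adjusted p = 0.179), but it passed without aPVAT cKO 4 (-0.69, adjusted p = 0.0447) and without both libraries high in structural RNA (-0.77, adjusted p = 0.00595). Plin1 likewise passed without those libraries (-0.52, adjusted p = 0.0427) and not with them (-0.37, SE 0.120, adjusted p = 0.260).

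**Figure D2:**
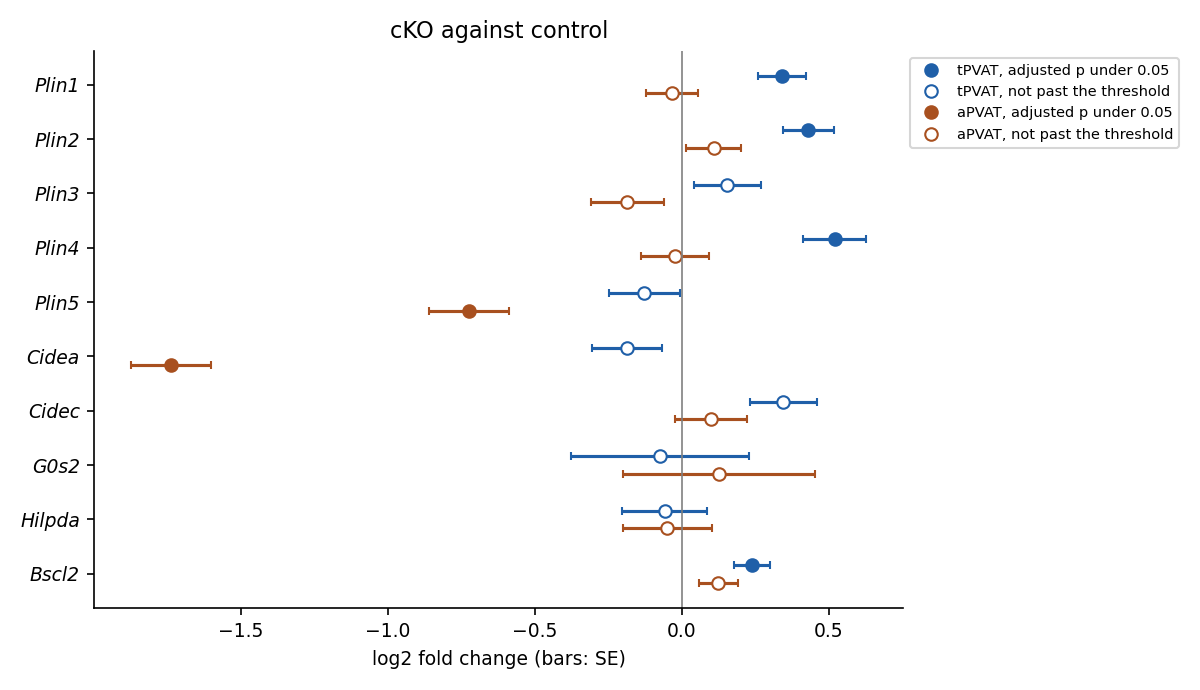
Log2 fold change of cKO against control for each of the 10 genes in tPVAT and in aPVAT, with bars of 1 SE and filled points for an adjusted p under 0.05. The filled tPVAT points (Plin1, Plin2, Plin4 and Bscl2) are all above 0, and the filled aPVAT points are Plin5 at -0.73 and Cidea at -1.74.

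Plin2, the coat protein found on droplets of nearly all cells, lies at chr4:86648386-86670060. It was at 657.1, 716.1, 692.8 and 733.7 CPM in tPVAT controls and 906.4, 889.0, 1060.05 and 916.6 CPM in tPVAT cKO. No libraries overlapped, and the rise was 0.43 on the log2 scale (SE 0.0858, edgeR adjusted p = 0.00355). In aPVAT it was at 268.0, 243.5, 270.9 and 229.3 CPM in controls and 313.2, 251.7 and 252.3 CPM in cKO, which overlapped (log2 fold change 0.11, SE 0.0925, edgeR adjusted p = 0.672). Plin3, a widely expressed perilipin that binds droplets from the cytosol, ranged from 77.2 to 105 CPM in tPVAT controls and 89.0 to 116 CPM in tPVAT cKO, and from 43.7 to 61.2 and 41.3 to 47.1 CPM in aPVAT. Its genotype differences of 0.15 (SE 0.115) and -0.19 (SE 0.125) passed in neither depot (edgeR adjusted p = 0.432 and 0.581).

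Plin5, the perilipin of oxidative tissues that brings droplets and mitochondria together, was at 129.7, 139.9, 131.1 and 133.2 CPM in tPVAT controls and at 118.0, 98.5, 134.4 and 137.6 CPM in tPVAT cKO. These groups overlapped (log2 fold change -0.13, SE 0.122, edgeR adjusted p = 0.548). In aPVAT it was at 37.2, 26.5, 38.6 and 31.7 CPM in controls and 22.1, 17.1 and 21.7 CPM in cKO. All cKO libraries were below all controls, and Plin5 fell by 0.73 on the log2 scale (SE 0.136, edgeR adjusted p = 0.0101). That call ended when aPVAT cKO 3 was left out (-0.62, adjusted p = 0.0613) and in a fit of the aPVAT libraries alone (-0.71, adjusted p = 0.0966). The difference between the depots' effects was -0.60 (SE 0.181) and did not pass (edgeR adjusted p = 0.213).

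Bscl2, whose product seipin shapes nascent droplets at the endoplasmic reticulum, lies at chr19:8837467-8848683. There 398 exon bases overlap Gng3 on the opposite strand, and no source used here gives the strand setting of the counting. On the same strand, 239 exon bases are shared with AC129217.1, a gene without a row of counts. Bscl2 was at 179.9, 188.3, 187.0 and 189.7 CPM in tPVAT controls and 224.2, 225.7, 213.3 and 215.5 CPM in tPVAT cKO. The groups did not overlap and the rise was 0.24 on the log2 scale (SE 0.0617, edgeR adjusted p = 0.0186). Leaving out tPVAT control 1 (0.22, adjusted p = 0.0600) or, separately, cKO 1 of that depot (0.23, adjusted p = 0.0551) ended the call. In aPVAT the levels were 222.1, 192.4, 204.0 and 208.9 CPM in controls and 234.3, 204.1 and 237.4 CPM in cKO, with a difference of 0.12 (SE 0.0664, edgeR adjusted p = 0.474).

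G0s2 and Hilpda encode inhibitors of the main triglyceride lipase Pnpla2, and neither passed a genotype or depot test in the edgeR fit of group means. G0s2, at chr1:193272161-193273217, was at 195, 129, 237 and 252 CPM in tPVAT controls, 209, 123, 193 and 248 CPM in tPVAT cKO, 186, 72.2, 133 and 151 CPM in aPVAT controls and 203, 84.2 and 157 CPM in aPVAT cKO. Its coefficient of variation was 27.1% to 40.4% within groups, and the log2 differences with genotype were -0.07 (SE 0.303) and 0.13 (SE 0.326), so that a change of moderate size was not detectable. Hilpda, at chr6:29272488-29275446, had group means of 2.92, 2.81, 3.27 and 3.17 CPM for tPVAT control, tPVAT cKO, aPVAT control and aPVAT cKO, with differences of -0.06 (SE 0.146) and -0.05 (SE 0.152) with genotype.

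Between depots, Cidea, Plin5, Plin2 and Plin3 were lower in aPVAT than in tPVAT of control mice, and Plin4, Cidec and Bscl2 were higher. These are 4 lower and 3 higher of 10, where 27.3% of all genes were lower and 29.3% higher (56.6% called). In cKO mice 5 were lower, the same 4 and Plin1, and 2 were higher, Plin4 and Cidec, where 25.4% and 27.2% of all genes were lower and higher (52.6% called). The library groups did not overlap for 7 of the 10 in controls, against 49.5% of all genes, and for 6 of the 10 in cKO mice, against 55%. The fit with library sizes outside the mitochondrial genome and no TMM factors moved the median of all genes from 0.04. It became 0.40 in controls and 0.39 in cKO mice, and 79.5% and 80.5% of calls were higher in place of 51.7% in each. Under that scaling Cidea, Plin2, Plin3 and Plin5 stayed lower and Plin4 and Cidec higher, while the Plin1 difference in cKO mice changed sign to 0.13 (edgeR adjusted p = 0.151) and that in controls passed at 0.51 (adjusted p = 1.17e-05). The largest depot difference was that of Cidea, 7.22-fold lower in aPVAT of controls (log2 fold change -2.85, SE 0.128, edgeR adjusted p = 1.24e-10) and 21.2-fold lower in aPVAT of cKO mice (-4.40, SE 0.155, adjusted p = 5.81e-11). Heart muscle markers, of a tissue that also expresses Plin5, summed to 242 to 322 CPM in tPVAT controls and 23.2 to 27.9 CPM in aPVAT controls (10 of 10 lower in aPVAT). Macrophage markers summed to 470 to 528 and 830 to 1150 CPM (12 of 12 higher), and the part of these cells in the depot differences was not tested. These contrasts share libraries with the genotype contrasts, so they are not independent of them.

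The perilipins differed in direction between the depots. Plin5 was 3.98-fold lower in aPVAT of controls (log2 fold change -1.99, SE 0.126, edgeR adjusted p = 2.55e-09) and 6.02-fold lower in aPVAT of cKO mice (-2.59, SE 0.145, adjusted p = 1.51e-09). Its neighbour Plin4 was 2.27-fold higher in aPVAT of controls (1.18, SE 0.108, adjusted p = 1.77e-07) and 1.55-fold higher in cKO mice (0.64, SE 0.115, adjusted p = 0.000257). Plin2 was 2.77-fold lower in controls (-1.47, SE 0.0875, adjusted p = 1.31e-09) and 3.46-fold lower in cKO mice (-1.79, SE 0.0979, adjusted p = 1.19e-09), and Plin3 1.83-fold and 2.31-fold lower (-0.87, SE 0.115, and -1.21, SE 0.128). Cidec was 1.78-fold higher in aPVAT of controls (0.84, SE 0.114, edgeR adjusted p = 1.33e-05) and 1.505-fold higher in cKO mice (0.59, SE 0.121, adjusted p = 0.000787). Plin1 and Bscl2 were close to the threshold and changed sides of it with the analysis. Plin1 in controls differed by 0.16 (SE 0.0812, edgeR adjusted p = 0.112), or by 0.20 without the pair high in structural RNA (edgeR adjusted p = 0.0280). In cKO mice it differed by -0.22 (SE 0.0880, edgeR adjusted p = 0.0487), with overlapping libraries. That call was lost in 15 of 25 alternatives, and in 1 more the sign changed and the difference did not pass. Bscl2 in controls differed by 0.15 (SE 0.0617, adjusted p = 0.0462), lost in 16 of 25. G0s2 was lower on average in aPVAT (-0.58, SE 0.303, and -0.38, SE 0.329) without passing.

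**Figure D3:**
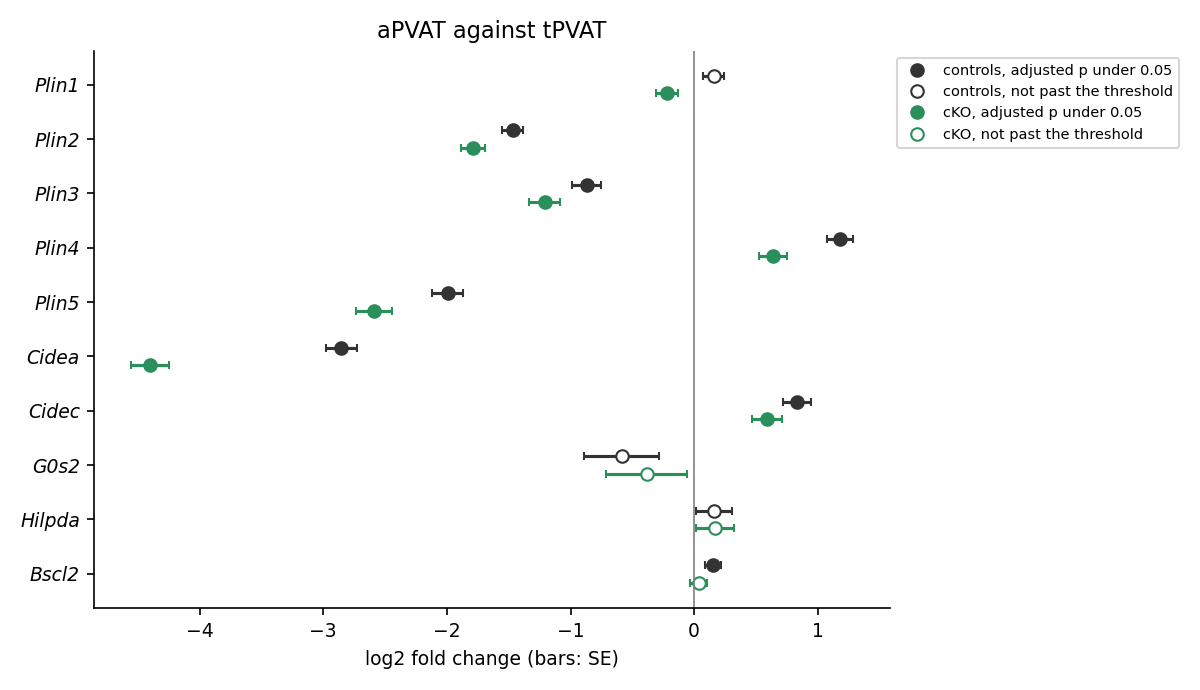
Log2 fold change of aPVAT against tPVAT for each of the 10 genes, in control and in cKO mice, with bars of 1 SE and filled points for an adjusted p under 0.05. Cidea lies farthest to the left, at -2.85 and -4.40, and Plin4 farthest to the right in each genotype, at 1.18 and 0.64.

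Levels of different genes can be compared only per length, here as CPM per kilobase of merged exons. Merged exons join all annotated transcripts of a gene, from 871 bases for G0s2 to 5897 for Bscl2, so the order depends on that length. In tPVAT controls the order ran Cidea at 1357, Cidec at 564, G0s2 at 233, Plin2 at 199, Plin1 at 166, Plin4 at 93.7, Plin5 at 64.0, Bscl2 at 31.6, Plin3 at 24.0 and Hilpda at 2.65 CPM per kb. Of neighbours in that order, G0s2 and Plin2 overlapped between libraries. In aPVAT controls Cidec led at 1007, followed by Plin4 at 212, Cidea at 188, Plin1 at 185, G0s2 at 156, Plin2 at 72.0, Bscl2 at 35.1, Plin5 at 16.1, Plin3 at 13.1 and Hilpda at 2.97 CPM per kb. There Plin4, Cidea, Plin1 and G0s2 overlapped from each to the next, as did Plin5 and Plin3. In aPVAT cKO Cidea had moved to 56.3 CPM per kb, below Cidec at 1078, Plin4 at 209, Plin1 at 181, G0s2 at 170 and Plin2 at 77.6. In tPVAT cKO Cidea remained first, at 1192, ahead of Cidec at 717 CPM per kb.

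Ratios of counts within a library do not depend on its scaling, and the pairs here were chosen after their values had been seen, so they are given without a test. Counts of Cidea per count of Cidec ran from 1.33 to 1.64 in tPVAT controls (median 1.421), 0.945 to 1.07 in tPVAT cKO (median 0.996), 0.0967 to 0.121 in aPVAT controls (median 0.115) and 0.0219 to 0.0436 in aPVAT cKO (median 0.0320). No group overlapped another. Plin4 per Plin5 ran from 3.92 to 4.23 in tPVAT controls, 5.61 to 8.50 in tPVAT cKO, 35.4 to 38.4 in aPVAT controls and 48.0 to 66.2 in aPVAT cKO, again with no overlap. Plin5 per Plin1 ran from 0.1651 to 0.17996 in tPVAT controls, 0.0970 to 0.139 in tPVAT cKO, 0.0338 to 0.0419 in aPVAT controls and 0.0216 to 0.0285 in aPVAT cKO. The ratio of Plin4 to Plin1 separated the depots (0.662 to 0.825 in all tPVAT libraries and 1.30 to 1.52 in all aPVAT libraries), and in aPVAT the genotypes overlapped.

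**Figure D4:**
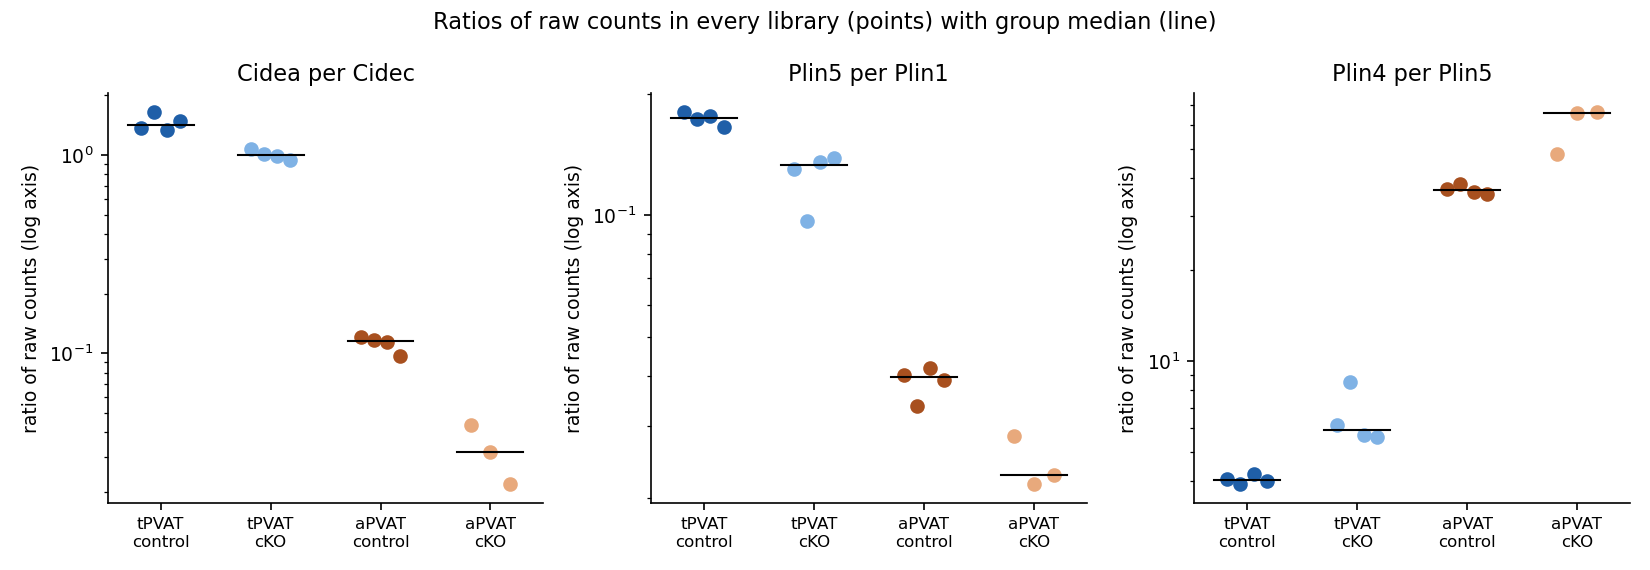
Ratio of raw counts in every library (points) with the group median (line), on log axes, for Cidea per Cidec, Plin5 per Plin1 and Plin4 per Plin5. The 4 groups are separate in each panel, and Cidea per Cidec runs from 1.64 at the highest to 0.0219 at the lowest library.

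After each depot's mean was subtracted, levels across the 15 libraries gave the closest pattern to Plin1 for Plin4 (Pearson r = 0.96) and to Cidea for Cpt1b and Acot11 (0.97 each), of 11841 genes searched. Plin5 was closest to Ppif and Dnajc15 (0.94 each), nuclear genes that encode mitochondrial proteins, and Bscl2 to Tpp1 (0.97). Between the 10 genes, Plin5 and Cidea gave r = 0.88 and Plin4 and Cidec 0.85, while Cidea and Plin1 gave -0.00. These points share libraries, scaling and genotype, and the values are a description.

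Other genes of the droplet were taken from lists of lipases, triglyceride synthesis, droplet biogenesis and regulators. In tPVAT cKO, where 12% of all genes were called, 4 of 17 tested triglyceride synthesis genes rose and 1 fell (median log2 fold change 0.16). Gpat3, a first-step acyltransferase, rose from 17.4 to 56.9 CPM (1.71, SE 0.124, edgeR adjusted p = 2.37e-07). Lpin1, which makes diacylglycerol, rose by 0.49 (SE 0.114, adjusted p = 0.00976), and Dgat1, which makes triglyceride, by 0.42 (SE 0.0741, adjusted p = 0.00156). Dgat2 rose by 0.33 (SE 0.0962, adjusted p = 0.0363), a call lost without any of tPVAT controls 1, 2 and 3 or cKO 1, 2 and 4 (0.27 to 0.33, adjusted p = 0.0635 to 0.111). Agpat3 fell by 0.35 (SE 0.0634, adjusted p = 0.00178). Of 11 lipases and cofactors 2 rose (median 0.08): Abhd5, the co-activator held by Plin1, by 0.30 (SE 0.0670, adjusted p = 0.00699) and the carboxylesterase Ces1f by 0.42 (SE 0.105, adjusted p = 0.0141). Of 38 biogenesis and other surface genes 5 rose and 0 fell (median 0.01), where 5.44% of all genes rose and 6.61% fell. Among the 5 were the caveolar Cav2, from 105 to 199 CPM (0.92, SE 0.171, adjusted p = 0.00216), Cavin2, by 0.58 (SE 0.135), and Rab32 and Nsdhl. The fifth, Vcp, rose by 0.20 (adjusted p = 0.0326) and was lost without any of tPVAT controls 2, 3 and 4 or cKO 1, 2 and 3 (0.18 to 0.20, adjusted p = 0.0513 to 0.0888). Of 18 regulators 3 fell (median -0.11): Prdm16 itself, the coactivator Ppargc1b by 0.71 (adjusted p = 0.00151) and Ppara by 0.41 (adjusted p = 0.0256), the last lost without tPVAT control 2 or 4 or cKO 1, 2 or 3 (adjusted p = 0.0534 to 0.0836).

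In aPVAT cKO, where 1.53% of all genes were called, 3 of 17 synthesis genes rose (median 0.27): Dgat1 by 0.44 (SE 0.0794, edgeR adjusted p = 0.00819), Gpat3 by 0.65 (SE 0.127, adjusted p = 0.0127) and Agpat2 by 0.39 (SE 0.0830, adjusted p = 0.0247). The rise of Gpat3 was larger in tPVAT, with an interaction of -1.05 (SE 0.177, adjusted p = 0.00686), and its aPVAT call ended when cKO 4 was left out (0.56, adjusted p = 0.0766). Agpat2 was lost without aPVAT control 4 (0.37, adjusted p = 0.0742), cKO 1 (0.34, adjusted p = 0.135) or cKO 4 (0.36, adjusted p = 0.0991). Without the pair of libraries high in structural RNA, neither Dgat1 (0.33, adjusted p = 0.0590) nor Agpat2 (0.32, adjusted p = 0.0996) passed. The 11 lipase genes and cofactors ran from -0.31 to 0.25 (median -0.02), without a call at the threshold. Of 38 biogenesis genes 1 rose, Nsdhl (0.42, adjusted p = 0.0292), a call lost without aPVAT control 3 or 4 or cKO 1 or 3 (0.32 to 0.42, adjusted p = 0.0723 to 0.182), and 1 fell. That was Cideb, the third CIDE gene, mainly known from liver, with 18, 15, 41 and 12 counts in aPVAT controls 1 to 4 and 4, 4 and 1 counts in cKO 1, 3 and 4. The ratio of its summed counts, scaled by library size, was 0.151 (exact 95% interval 0.0666 to 0.299, counting error only), and its edgeR log2 fold change was -2.67 (SE 0.479, adjusted p = 0.00792), a call lost with sample quality weights in limma (-2.34, adjusted p = 0.107). Cideb overlaps Nop9 on the opposite strand, so its reads are uncertain. Of 18 regulators 4 fell (median -0.11), Prdm16, Ppargc1b (-0.999, SE 0.147, adjusted p = 0.00148), Ppara (-0.83, SE 0.126, adjusted p = 0.00215) and Esrrg (-0.86, SE 0.173, adjusted p = 0.0166), the last lost without aPVAT cKO 1 (-0.76, adjusted p = 0.120) or cKO 3 (-0.78, adjusted p = 0.0892) and with quality weights (-0.96, adjusted p = 0.0889). In a fit of the aPVAT libraries alone, Ppargc1b kept its call, while Prdm16 (adjusted p = 0.0739), Ppara (0.0933), Cideb (0.110), Gpat3 (0.115), Esrrg (0.117), Dgat1 (0.143), Agpat2 (0.166) and Nsdhl (0.185) did not.

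**Figure D5:**
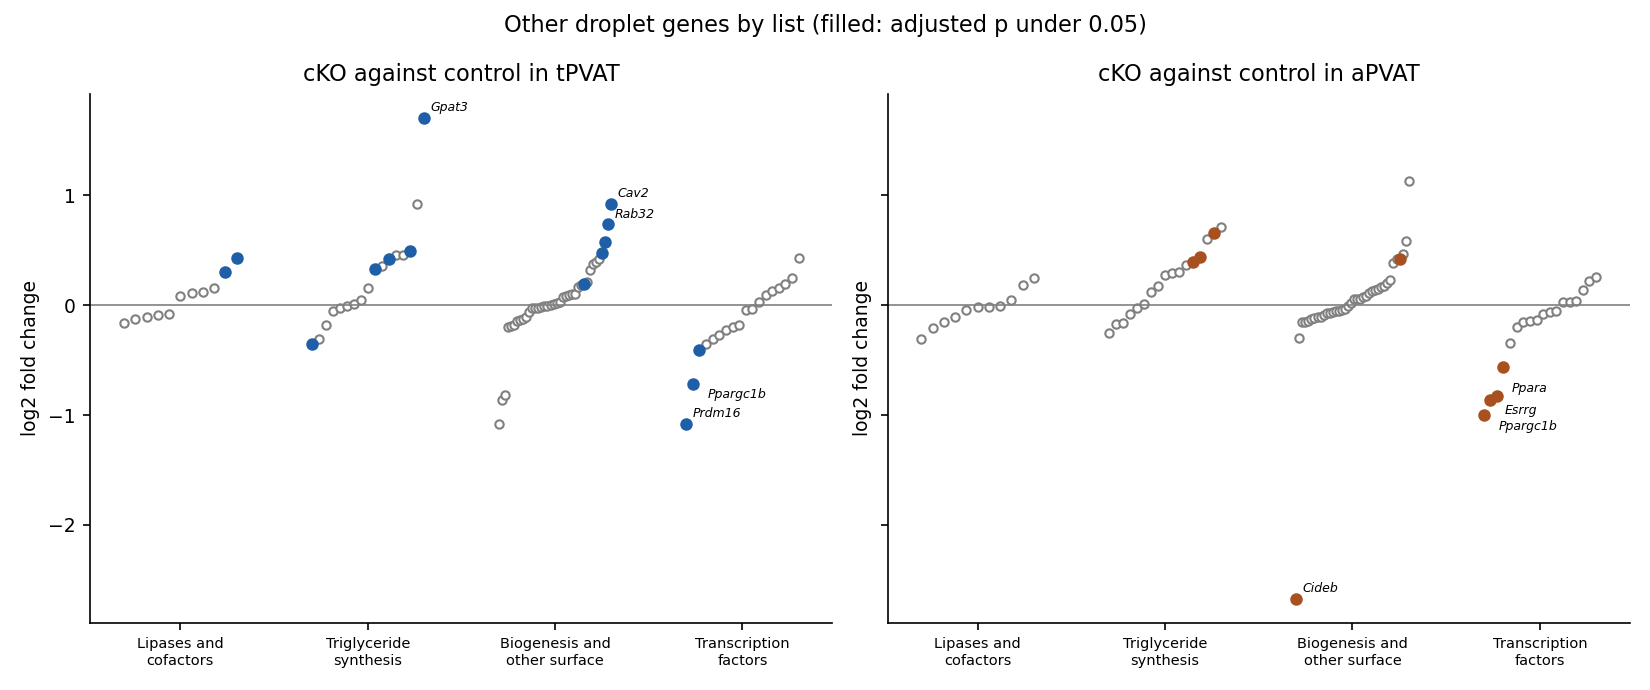
Log2 fold change of cKO against control for the tested genes of the 4 droplet lists (lipases and cofactors, triglyceride synthesis, biogenesis and other surface proteins, regulators), with filled points for an adjusted p under 0.05, in tPVAT and aPVAT. Gpat3 stands highest in tPVAT at 1.71 and Cideb lowest in aPVAT at -2.67.

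Between the depots of control mice, where 27.3% of all genes were lower in aPVAT and 29.3% higher, 10 of 17 synthesis genes were lower in aPVAT and 4 higher, the latter including Gpat3 (2.49), while Agpat2 (-1.25) and Agpat3 (-1.42) were among the lower (log2 fold changes). Of 11 lipase genes 5 were lower and 1 higher: the main lipase Pnpla2 was at 2379 CPM in tPVAT and 1632 CPM in aPVAT (-0.54), Lipa was lower (-1.28) and Ces1f higher (1.37). Of 38 biogenesis genes 23 were lower and 8 higher, with Clstn3, whose shorter product limits droplet fusion by CIDE proteins, at -1.75. Of 18 regulators 13 were lower and 1 higher, with Esrrg at -2.57, Ppargc1b at -2.38 and Ppara at -2.20. In cKO mice, 25.4% of all genes were lower in aPVAT and 27.2% higher. For the same lists that contrast gave 11 lower and 4 higher, 5 and 1, 21 and 6, and 12 and 2. The direction of these counts depended on the scaling, here changed to library sizes outside the mitochondrial genome and no TMM factors. Among the synthesis, lipase and biogenesis genes together, 61.7% of 47 calls were then higher in aPVAT of controls, in place of 25.5% of 51. In cKO mice 47.6% of 42 calls were higher, in place of 22.9% of 48. Pnpla2 in controls was then at -0.19 and did not pass (edgeR adjusted p = 0.0869).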

How the data were processed

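Bulk RNA-seq was made from total RNA of thoracic and abdominal PVAT with a stranded mRNA library kit, per the labels' protocols. The authors deposited raw counts per Ensembl gene ID for 15 libraries. The submitters' processing notes name mm10, Salmon, Subread and DESeq2 1.42.1. No source used here gives their roles, the annotation or the strand setting. GENCODE M21 gave names and exon lengths (42468 of 43352 IDs matched). The 10 genes and all lists were chosen with earlier results of these data known.

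Genes were filtered with filterByExpr (minimum count 10), scaled by TMM and tested with edgeR 4.0.16 (R 4.3.3) quasi-likelihood F tests, with 1 mean per group and all 15 libraries in one fit. P-values were adjusted by Benjamini-Hochberg over all 19645 genes, with a threshold of 0.05. The script was tested on simulated data. Other genes were named as the 4 of smallest p per list and comparison, all of a count of up to 5, and the 2 most similar patterns per gene. DESeq2 1.42.0, limma 3.58.1, other scalings, filters, replicate blocks, fits of the compared groups alone and each library left out were alternatives. No libraries were alike enough to be duplicates.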

Additional observations from a re-analysis of the deposited data

Results flagged for a closer look

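Plin2 in tPVAT cKO 3 stood apart from the other 3 libraries of its group, at 1060.05 CPM against 917 for the nearest and 889 for the lowest. The gap to the nearest library was 0.839 of the group's range, over Dixon's 95% limit for groups of 4. Of 30 groups of 4 libraries examined, chance alone flags about 1 in 20.

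Cidea responded to the genotype differently in the depots, by -1.55 on the log2 scale (edgeR interaction, adjusted p = 0.000303), with -0.19 in tPVAT and -1.74 in aPVAT. All 4 tPVAT cKO libraries and all 3 aPVAT cKO libraries were below the controls of their depot.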

How the results depend on the processing

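Of 2664 values of single genes under the alternatives, 2523 kept their direction and side of the threshold, 81 no longer passed, 22 newly passed and 38 changed sign. Cidea, Cidec, Plin2, Plin3, Plin4 and Plin5 kept every depot call. The count of genes called in tPVAT (2367) was 3726 with only the tPVAT libraries and 4080 with quality weights. That in aPVAT (301) was 604 with DESeq2 and 92 with only the aPVAT libraries, and 161 (without cKO 1) to 398 with 1 library left out. The interaction (154 genes) gave 350 with DESeq2. Of the lipase, synthesis and biogenesis genes called, tPVAT (12) gave 19 with DESeq2, 24 with only the tPVAT libraries, 24 with quality weights and 10 to 20 (20 without aPVAT control 1) with 1 library left out. aPVAT (5) gave 8 with DESeq2, 0 with only the aPVAT libraries (a fit in which 92 of all genes passed), and 3 (without aPVAT control 4 or cKO 1) to 6. The interaction (1) gave 2 with DESeq2, with quality weights and without the pair of libraries high in structural RNA, and 1 to 2 (without aPVAT control 1) with 1 left out. Of the 10 genes, 1 in place of 2 passed in aPVAT with only its libraries, and 1 to 2 with 1 left out, and in the interaction 3 in place of 1 passed without the pair high in structural RNA and 1 to 2 (without aPVAT cKO 4) with 1 left out. The causes were not tested.

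Values that changed sign had not passed, except that of Plin1 between the depots of cKO mice. It went to 0.13 with library sizes outside the mitochondrial genome and no TMM factors. Without the libraries high in structural RNA, the genotype effect in aPVAT was -0.15 for Cidec and -0.13 for G0s2, the depot difference of Bscl2 in cKO mice was -0.00305, and the interaction was -0.0538 for G0s2 and -0.134 for Hilpda. The Hilpda interaction was also -0.00133 with library sizes outside the mitochondrial genome and no TMM factors, and -0.000392 with no filter. With 1 library left out, the tPVAT genotype effect ran from -0.24 to 0.0928 for G0s2 and -0.13 to 0.0433 for Hilpda. The aPVAT effect ran from -0.13 to 0.0178 for Plin1, -0.00681 to 0.16 for Plin2, -0.17 to 0.0589 for Plin4, -0.0558 to 0.18 for Cidec, -0.17 to 0.40 for G0s2 and -0.13 to 0.0581 for Hilpda. The depot difference of Bscl2 in cKO mice ran from -0.00336 to 0.10, and the interaction from -0.10 to 0.48 for G0s2 and -0.0926 to 0.12 for Hilpda.

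Library numbers were not taken as a pairing, since no label states what they mean. Between same-numbered libraries of both depots, deviations from group means correlated at 0.00273 to 0.0482 in controls and -0.0300 to 0.165 in cKO mice. Over all same-numbered pairs, also those across genotypes, they ran from -0.22 to 0.17. Some libraries, but not all, matched their own number best. With 3 or 4 libraries per group, these values cannot decide whether a number stands for a shared mouse or batch. With the replicate number as a fixed block, 2392 genes were called in tPVAT, 312 in aPVAT, 11004 and 10047 between depots in control and cKO mice, and 160 in the interaction. Under that block G0s2 passed between depots (-0.63, adjusted p = 0.00840, and -0.62, adjusted p = 0.0194), its aPVAT genotype effect was -0.0765 and the Hilpda interaction was -0.0417. It also brought Cidec in tPVAT past the threshold (0.35, adjusted p = 0.0330) and ended the calls of Agpat2 in aPVAT (adjusted p = 0.0522), Bscl2 between depots of controls (adjusted p = 0.0567) and Plin1 between depots of cKO mice (adjusted p = 0.0694). With genotype and number as a random block Cidec in tPVAT passed (adjusted p = 0.0496), Esrrg in aPVAT did not (adjusted p = 0.0587), and the Hilpda interaction was -0.00966. With library sizes outside the mitochondrial genome and no TMM factors, Hilpda passed between depots (0.52 in each genotype). Bscl2 in cKO mice did as well (0.38). Hilpda was measured at under 4 CPM, while the widest genotype errors were those of G0s2 (SE 0.303 and 0.326).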

Other observations

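G0s2 was lowest in the library numbered 2 in each of the 3 groups that have one, at 129 CPM in tPVAT controls, 123 CPM in tPVAT cKO and 72.2 CPM in aPVAT controls, which was seen after the values were known. Hilpda was highest in the library numbered 1 in tPVAT controls (3.52 CPM), tPVAT cKO (3.09 CPM) and aPVAT controls (3.97 CPM), but not in aPVAT cKO (3.32 CPM, against 3.51 CPM in library 4). Whether a number stands for a shared animal or day is stated by no label.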
